A study of Homo sapiens with 6 samples.

Results

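PC-9 is a human lung adenocarcinoma line that depends on mutant EGFR. Described here are 8 genes whose products remove phosphate from the lipid second messengers of PI3 kinase or from the kinase AKT itself: INPP4A, INPP4B, INPPL1, INPP5D, INPP5E, INPP5K, PHLPP1 and PHLPP2. They were taken as listed genes and matched by symbol, and all 8 of them were found among the 26485 symbols of the count table. PC-9 cells with a stable short hairpin RNA against IFITM3 (shIFITM3, 3 samples) were set against PC-9 cells with a control hairpin (shControl, 3 samples), and no drug treatment is named for either group. The labels speak of stable expression and of biological replicates, without giving the number of clones or hairpin sequences, and the column names call the control ShEV. The study's title sets the comparison in the AKT pathway and in osimertinib resistance, osimertinib being a drug against mutant EGFR.

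PI3 kinase adds a phosphate to a membrane lipid and so makes PIP3, which brings AKT to the membrane, where it is phosphorylated and switched on. The signal is ended at several levels. The SHIP enzymes, encoded by INPP5D and INPPL1, and other inositol polyphosphate 5-phosphatases such as those of INPP5E and INPP5K take the phosphate at ring position 5 from PIP3 or related lipids. The product of that step, PI(3,4)P2, also binds AKT, and the enzymes of INPP4A and INPP4B take the phosphate at position 4 from it. PHLPP1 and PHLPP2 act on AKT directly and remove the phosphate from its hydrophobic motif.

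The results turn on the paralogous pairs INPP4B with INPP4A and PHLPP1 with PHLPP2, so the 250 bases before the furthest upstream start that RefSeq's promoter table (GRCh38.p14) gives for each are shown 5′ to 3′ on the gene's strand. Capitals mark GC boxes (GGGCGG on either strand). The windows are chr4:142846302-142846551 (minus strand) for INPP4B, chr2:98444337-98444586 (plus) for INPP4A, chr18:62715291-62715540 (plus) for PHLPP1 and chr16:71724702-71724951 (minus) for PHLPP2.
INPP4B: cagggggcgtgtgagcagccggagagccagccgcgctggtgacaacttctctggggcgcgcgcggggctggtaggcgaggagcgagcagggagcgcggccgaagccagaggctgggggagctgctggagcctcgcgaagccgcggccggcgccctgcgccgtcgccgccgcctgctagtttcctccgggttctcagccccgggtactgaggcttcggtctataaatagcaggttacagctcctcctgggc
INPP4A: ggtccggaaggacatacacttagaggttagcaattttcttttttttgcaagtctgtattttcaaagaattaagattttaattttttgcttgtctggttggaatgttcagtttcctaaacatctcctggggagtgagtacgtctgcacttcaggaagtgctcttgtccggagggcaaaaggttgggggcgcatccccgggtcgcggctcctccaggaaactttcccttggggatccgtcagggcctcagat
PHLPP1: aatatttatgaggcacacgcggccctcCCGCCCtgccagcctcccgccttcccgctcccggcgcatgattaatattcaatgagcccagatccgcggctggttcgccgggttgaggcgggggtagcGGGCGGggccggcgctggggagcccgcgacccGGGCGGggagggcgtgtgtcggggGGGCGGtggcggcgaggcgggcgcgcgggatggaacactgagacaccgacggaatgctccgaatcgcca
PHLPP2: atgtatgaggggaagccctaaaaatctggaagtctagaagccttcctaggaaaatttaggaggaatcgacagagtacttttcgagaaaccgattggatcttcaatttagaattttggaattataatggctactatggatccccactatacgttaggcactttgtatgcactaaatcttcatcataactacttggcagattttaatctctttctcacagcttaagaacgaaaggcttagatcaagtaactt

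The PHLPP windows differed most in composition. That of PHLPP1 was 71.2% G and C with 33 CpG dinucleotides and 4 GC boxes, and that of PHLPP2 was 37.2% G and C with 5 CpG dinucleotides and no GC box. The INPP4B window was 70.8% G and C without a GC box. The INPP4A window was 47.6% G and C without one, although a second INPP4A start a short way downstream had a window of 67.2% G and C with 4. Across 34943 RefSeq windows of the same length the median was 58.0% G and C, and 42.5% held a GC box. Neither a FOXO site (GTAAACA, in 2.98% of all windows) nor a sterol element (TCACNCCAC, in 0.881%) was found on either strand in any window of the 8 genes, and an E-box (CACGTG, in 6.32%) was found in 1, that of a downstream INPP4B start. Such matches describe letters in a window and not binding, and counts per gene do not tell which start was used.

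Total counts were between 21965506 and 23852371 in the shIFITM3 samples and between 21342028 and 77228760 in the shControl samples, with shControl replicate 2 the deepest. IFITM3 itself was at 10.99 ± 1.65 CPM (reads per 1000000, on TMM-scaled totals) in shIFITM3 and 60.1 ± 2.91 CPM in shControl (SD, n = 3 each), and all 3 knockdown samples lay below all 3 controls. The epithelial markers EPCAM, CDH1, KRT7, KRT8, KRT18 and KRT19 were all present, the lowest being CDH1 at 117 CPM in shIFITM3 and 177 CPM in shControl. A level in bulk RNA is a mean over cells, so fewer expressing cells and less RNA per cell cannot be told apart.

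Of the 8 genes, 7 had enough reads to be tested, and 4 of these 7 (57.1%) passed the threshold of 0.05 on the adjusted p. INPP4A, INPP4B and INPP5K rose in shIFITM3 cells, and PHLPP1 fell. Of all 14018 tested genes 56.1% passed, 27.7% higher and 28.4% lower, so the share among the phosphatases was near that of genes at large. The median log2 fold change of the 7 was 0.06, and that of all tested genes was -6.3e-05. INPPL1, INPP5E and PHLPP2 did not pass, and INPP5D was too low to be tested.

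**Figure D1:**
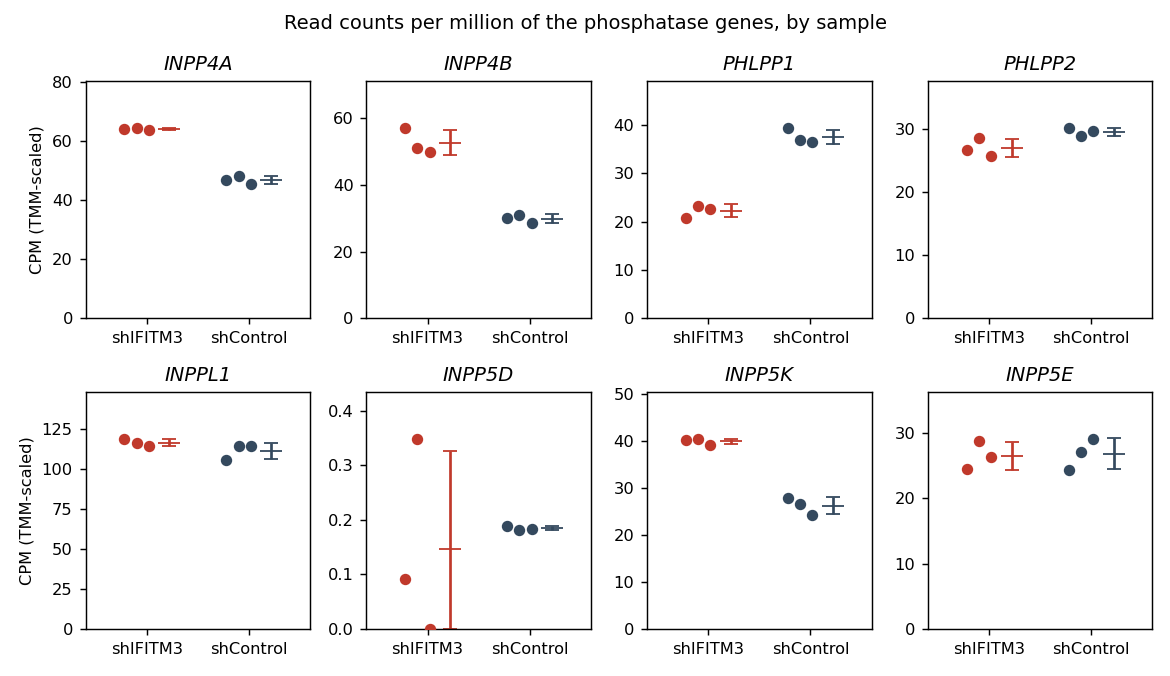
CPM (y axis, linear, from 0, with its own range in each panel) of the 8 phosphatase genes in each sample, shIFITM3 left and shControl right; dots are samples and bars the mean ± SD (n = 3), cut at 0 for INPP5D. INPP4A, INPP4B and INPP5K lie higher and PHLPP1 lower in every shIFITM3 sample, while the INPP5E groups overlap.

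Among the 4-phosphatases, INPP4B (chromosome 4, 142023160 to 142847432, minus strand, GRCh38) rose most. Its product is described as a tumour suppressor in breast and prostate epithelium, and its level was 56.9, 51.1 and 49.97 CPM in shIFITM3 replicates 1, 2 and 3, against 30.2, 30.9 and 28.5 CPM in shControl replicates 1, 2 and 3. All 3 knockdown samples lay above all 3 control samples, and shIFITM3 replicate 1 was the highest. The means were 52.7 ± 3.70 CPM in shIFITM3 and 29.9 ± 1.22 CPM in shControl (SD, n = 3 each), a ratio of 1.76 (95% interval 1.61 to 1.92). The log2 fold change was 0.81, with an SE of 0.0612, and its p from edgeR's quasi-likelihood fit, adjusted after Benjamini and Hochberg, was 5.45e-11. INPP4B shares 114 bases of exon with a non-coding RNA gene on the other strand, not analysed here. Among all tested genes 10.2% had a larger absolute log2 fold change.

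INPP4A (chromosome 2, 98444854 to 98594390, plus strand), the paralogue with the same substrate, rose as well but by less. It stood at 64.2, 64.4 and 63.7 CPM in the shIFITM3 replicates, against 46.8, 48.3 and 45.4 CPM in the shControl replicates. The groups did not overlap, and the knockdown samples lay within 1 CPM of each other. The means were 64.1 ± 0.354 CPM in shIFITM3 and 46.8 ± 1.47 CPM in shControl, a ratio of 1.37 (95% interval 1.27 to 1.47) or 0.45 on the log2 scale (SE 0.0492; edgeR adjusted p = 3.71e-08).

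INPP4B made up more of the reads of this pair in each knockdown sample than in any control sample. The log2 ratio of INPP4B to INPP4A reads was -0.18, -0.33 and -0.35 in the shIFITM3 replicates, against -0.63, -0.64 and -0.67 in the shControl replicates. The difference of the means was 0.36, a 1.29-fold difference that needs no scaling of the libraries, and the groups did not overlap. The exact two-sided permutation test gave p = 0.1, the smallest value that 3 samples against 3 can give (0.15 adjusted over the 3 pairs compared), so the difference could not pass 0.05 in this test. The intervals of the log2 fold changes of INPP4B (0.69 to 0.94) and INPP4A (0.35 to 0.55) did not overlap.

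PHLPP1 (chromosome 18, 62715450 to 62980433, plus strand) was the 1 phosphatase gene of the 7 that fell. Its product, found through its PH domain and leucine-rich repeats, takes the activating phosphate from the hydrophobic motif of AKT. The level was 20.8, 23.3 and 22.7 CPM in the shIFITM3 replicates, against 39.3, 36.9 and 36.4 CPM in the shControl replicates. Every knockdown sample lay well below every control sample. The means were 22.3 ± 1.34 CPM in shIFITM3 and 37.5 ± 1.55 CPM in shControl, a ratio of 0.595 (95% interval 0.540 to 0.655) or -0.75 on the log2 scale (SE 0.0675; edgeR adjusted p = 1.34e-09). Among all tested genes 11.7% had a larger absolute log2 fold change.

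PHLPP2 (chromosome 16, 71637835 to 71724701, minus strand), the paralogue that also acts on AKT, did not pass the threshold. It was at 26.6, 28.5 and 25.7 CPM in the shIFITM3 replicates, against 30.02, 28.8 and 29.6 CPM in the shControl replicates. The lowest control value lay just above the highest knockdown value. The log2 fold change was -0.13 (95% interval -0.26 to 0.01, edgeR adjusted p = 0.116), so a fall of up to 0.26 on that scale is within the interval. PHLPP2 shares 1068 bases of exon with MARVELD3 on the opposite strand in GENCODE 29. It also shares 194 bases with the antisense gene AC009097.1 and 114 bases with the antisense gene AC009097.4, which were not analysed here. MARVELD3 rose to 48.1 ± 3.12 CPM in shIFITM3, against 38.2 ± 1.15 CPM in shControl (log2 fold change 0.34, edgeR adjusted p = 3.01e-05), and its part in the PHLPP2 value was not tested.

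Which PHLPP gene had more reads differed between the groups. The log2 ratio of PHLPP1 to PHLPP2 reads was -0.36, -0.29 and -0.18 in the shIFITM3 replicates, against 0.39, 0.36 and 0.30 in the shControl replicates. PHLPP1 thus had fewer reads than PHLPP2 in each knockdown sample and more in each control sample. The difference of the means was -0.62, or 0.648-fold, with exact permutation p = 0.1, again the smallest possible (0.15 adjusted over 3 pairs). Per length of all annotated exons, however, PHLPP1 was above PHLPP2 within every sample of both groups. The change in which gene led therefore holds for reads and not for this measure. In shIFITM3 PHLPP1 was at 2.44 ± 0.147 and PHLPP2 at 2.16 ± 0.115 CPM per kb, and their ranges across samples met. In shControl the ranges were apart, at 4.11 ± 0.169 CPM per kb for PHLPP1 and 2.36 CPM per kb (2.30 to 2.40) for PHLPP2.

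**Figure D2:**
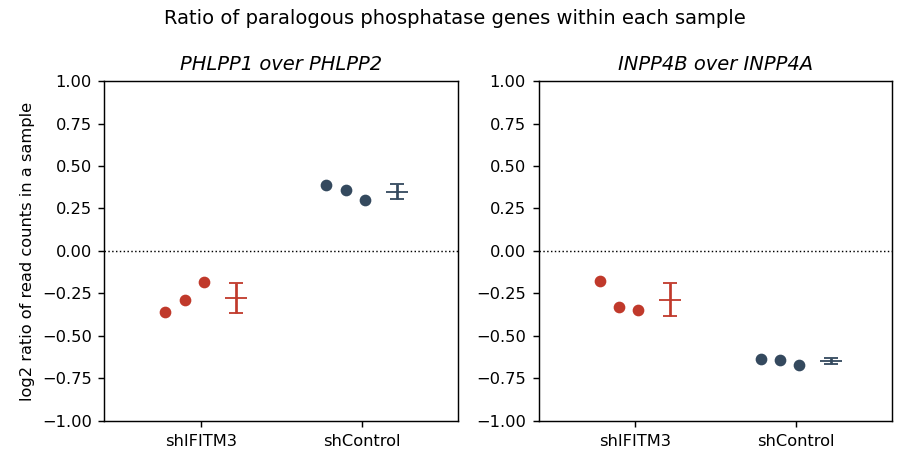
Log2 ratio of read counts of PHLPP1 over PHLPP2 (left) and INPP4B over INPP4A (right) within each sample (y axis, log2), shIFITM3 left and shControl right in each panel, with bars for the mean ± SD (n = 3). The PHLPP ratio lies below 0 in all 3 shIFITM3 samples and above 0 in all 3 shControl samples, and the INPP4 ratio is below 0 in both groups but nearer to it in shIFITM3. Counts are not divided by gene length.

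Of the 5-phosphatases, INPP5K (chromosome 17, 1494571 to 1516888, minus strand) rose. Its product, also called SKIP, is known from muscle, where it restrains insulin signalling. It was at 40.2, 40.4 and 39.3 CPM in the shIFITM3 replicates, against 27.9, 26.7 and 24.3 CPM in the shControl replicates. The knockdown samples were close together and all above the controls. The means were 39.97 ± 0.596 CPM in shIFITM3 and 26.3 ± 1.79 CPM in shControl, a ratio of 1.52 (95% interval 1.39 to 1.67) or 0.61 on the log2 scale (SE 0.0640; edgeR adjusted p = 2.07e-08).

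INPPL1 (chromosome 11, 72223701 to 72239105, plus strand), which encodes SHIP2, the SHIP enzyme of most non-blood tissues, had the most reads of the 8 genes. It was at 119, 116 and 114 CPM in the shIFITM3 replicates, against 105, 114 and 114 CPM in the shControl replicates. The lowest knockdown value (114.4 CPM) was only just above the highest control value (114.2 CPM). The log2 fold change of 0.06 did not pass (95% interval -0.02 to 0.15, edgeR adjusted p = 0.215). INPPL1 shares 29 bases of exon with PHOX2A on the other strand, which had 0 counts in every sample.

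INPP5E (chromosome 9, 136428619 to 136439823, minus strand), whose product works in the primary cilium and is mutated in Joubert syndrome, did not pass either. It was at 24.4, 28.8 and 26.4 CPM in the shIFITM3 replicates, against 24.4, 27.1 and 29.1 CPM in the shControl replicates. The groups overlapped, the log2 fold change was -0.02 (95% interval -0.18 to 0.14, edgeR adjusted p = 0.824), and its sign turned when shControl replicate 3 or shIFITM3 replicate 1 was left out. INPP5E was the 1 tested gene of the 7 whose groups overlapped; over all tested genes 60.9% had groups that did not overlap.

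INPP5D (chromosome 2, 233059967 to 233207903, plus strand), which encodes SHIP1, the SHIP enzyme of blood cells, was barely detected. It had 2, 8 and 0 counts in the shIFITM3 replicates and 4, 14 and 5 counts in the shControl replicates, which sum to 10 counts in shIFITM3 and 23 counts in shControl. The highest level was 0.348 CPM, in shIFITM3 replicate 2, and the count of 0 in shIFITM3 replicate 3 allows up to 3 counts, or 0.126 CPM (counting error only). No difference was detectable at this depth. The log2 ratio of INPP5D to INPPL1 reads, the third pair compared, differed by -1.13 (exact permutation p = 0.5), with overlapping groups. That difference was -2.11 without shIFITM3 replicate 2 and -0.05 without shIFITM3 replicate 3. The blood cell genes LCP2, SPI1 and TYROBP were at 0 in every sample, and PTPRC was at 0.321 ± 0.182 CPM in shIFITM3 and 0.288 ± 0.105 CPM in shControl. Of that list of 12 genes 2 were tested, of which ITGAM rose to 7.37 ± 1.57 CPM in shIFITM3, against 3.01 ± 0.241 CPM in shControl, and CORO1A fell (log2 fold change -0.39, edgeR adjusted p = 0.042). The CORO1A call was lost with DESeq2 (0.0766) and on leaving out replicate 1 or 2 of either group (0.0641 to 0.173). The list's summed level was 10.2 to 14.3 CPM in shIFITM3 and 8.68 to 9.37 CPM in shControl.

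Levels of different genes were set side by side per kb of all exons annotated in GENCODE 29. In shIFITM3 cells the order was INPPL1 (17.9 ± 0.321 CPM per kb), INPP5K (7.51 ± 0.112), INPP4A (4.86 ± 0.0268), INPP5E (4.09 ± 0.335), INPP4B (3.72 ± 0.262), PHLPP1 (2.44), PHLPP2 (2.16) and INPP5D (0.0168). In shControl cells it was INPPL1 (17.1 ± 0.770 CPM per kb), INPP5K (4.94 ± 0.336), INPP5E (4.14 ± 0.361), PHLPP1 (4.11), INPP4A (3.55 ± 0.112), PHLPP2 (2.36), INPP4B (2.11 ± 0.0865) and INPP5D (0.0212). PHLPP1 thus stood in place 6 in the knockdown and in place 4 in the control, and INPP4B in place 5 in the knockdown and in place 7 in the control. Neighbours whose ranges across samples overlapped were INPP5E with INPP4B and PHLPP1 with PHLPP2 in shIFITM3, and INPP5E with PHLPP1 in shControl. The places of INPP4A, INPP5K, INPP5E and PHLPP1 depend on the length used. On the principal transcript of each gene, a length chosen after seeing the data, PHLPP1 stood in place 6 in the knockdown and in place 5 in the control, and INPP4B kept its places. INPP4A came second in both groups on that length, at 19.8 CPM per kb in shIFITM3 and 14.5 CPM per kb in shControl. INPP5K moved from place 2 to place 3 in both groups, and INPP5E from place 3 to place 4 in shControl.

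The enzymes that make PIP3 and act on it changed in both directions. Of 18 listed genes of class I PI3 kinase, AKT and the kinases and complex subunits that act on AKT, 15 were tested. Of these 8 rose and 5 fell, with a median log2 fold change of 0.10. Over all tested genes 27.7% rose and 28.4% fell. Neither this list nor those below were tested against these shares. PIK3IP1, which encodes an inhibitor of PI3 kinase, was at 18.5 ± 1.19 CPM in shIFITM3 and 1.57 ± 0.128 CPM in shControl (log2 fold change 3.57). The catalytic subunit genes PIK3CD (1.72) and PIK3CA (0.42) rose, while PIK3CB (0.03) did not pass. Of the regulatory subunit genes PIK3R2 (0.38) rose, and PIK3R1 (-0.72) and PIK3R3 (-0.38) fell. AKT1 differed by 0.10 (edgeR adjusted p = 0.0351) and AKT2 by -0.07 (adjusted p = 0.0924). The AKT1 call was lost with upper-quartile scaling (adjusted p = 0.084) and on leaving out 1 of 4 samples, namely replicates 2 (0.231) and 3 (0.0521) of shIFITM3 and replicates 1 (0.136) and 3 (0.063) of shControl, and AKT2 passed with upper-quartile scaling (0.0385). Of the genes of kinases that phosphorylate AKT, PDPK1 (0.16) rose and MTOR (-0.44) fell. Of the genes of other mTORC2 subunits, which are not kinases, RICTOR (0.76) rose, and MLST8 (-0.36) and MAPKAP1 (-0.20) fell. The PDPK1 call was lost without shControl replicate 2 (adjusted p = 0.0555).

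**Figure D3:**
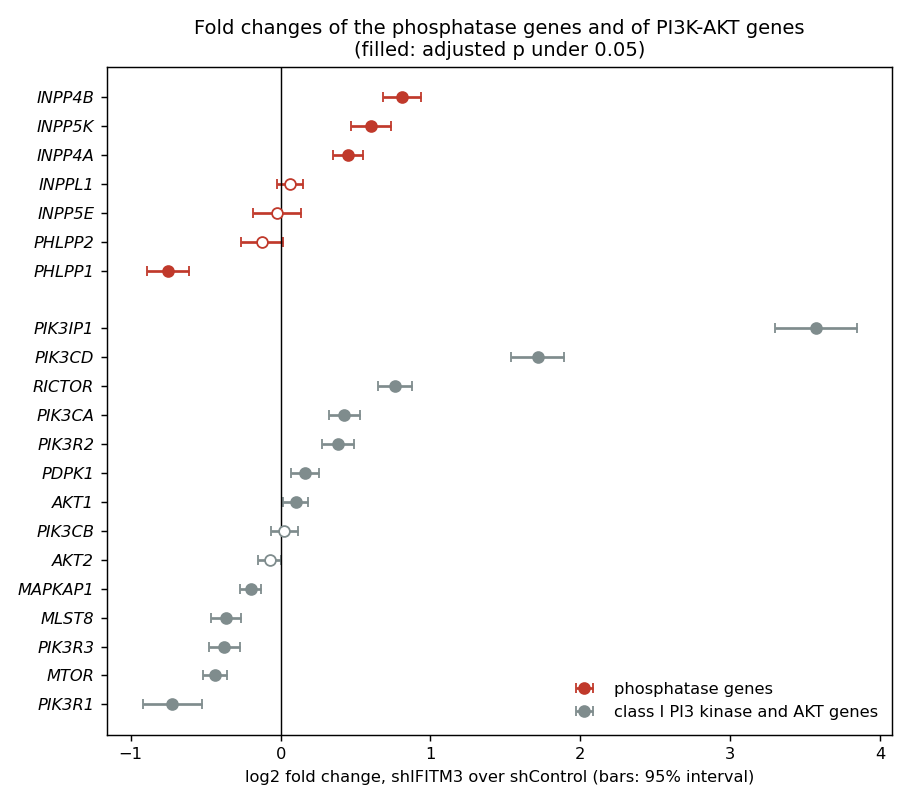
Log2 fold change, shIFITM3 over shControl (x axis), with 95% intervals, of the 7 tested phosphatase genes (red, top) and of the named genes of class I PI3 kinase and AKT (grey, below); filled dots passed an adjusted p of 0.05. INPP4B (0.81), INPP5K (0.61) and INPP4A (0.45) lie right of 0 and PHLPP1 (-0.75) left of it, while PIK3IP1 (3.57) lies furthest right.

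PHLPP proteins are held near AKT by scaffolds and are turned over by ubiquitin ligases and deubiquitinases. The list of PHLPP scaffolds and turnover held 11 genes, of which some, such as RAN, belong to none of these classes. All were tested, and 7 rose and 3 fell (median log2 fold change 0.18), beside 27.7% and 28.4% of all tested genes. USP46, which encodes a deubiquitinase that stabilises PHLPP1 protein, fell to 25.4 ± 1.39 CPM in shIFITM3, against 39.7 ± 2.12 CPM in shControl (-0.64, edgeR adjusted p = 1.27e-08). USP1 (-0.43), another deubiquitinase gene, and RAN (-0.25) fell too. FBXW11 (0.43), which encodes an F-box protein close to the one that directs PHLPP1 to degradation, rose. The rest of the list went mostly the other way from USP46. SLC9A3R1 (0.30), SLC9A3R2 (0.39), USP12 (0.37), BTRC (0.31), WDR48 (0.18) and WDR20 (0.14) rose, and FKBP5 (-0.02) did not pass.

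AKT is also dephosphorylated by PP2A, on its activation loop. Of 18 listed genes of PP2A subunits and modulators 17 were tested, of which 3 rose and 9 fell (median -0.15). The shares over all tested genes were 27.7% and 28.4%. The scaffold subunit gene PPP2R1B fell to 46.4 ± 1.34 CPM in shIFITM3, against 80.7 ± 4.45 CPM in shControl (-0.79). CIP2A (named KIAA1524 in the table), whose product inhibits PP2A, fell by 0.70 and SET, which encodes another inhibitor, by 0.21 on the log2 scale. The regulatory subunit gene PPP2R5B rose by 0.80.

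Other phosphatases of inositol lipids and inositol phosphates, among them the myotubularins, which act on the phosphate at ring position 3, the synaptojanins and SAC proteins, changed in both directions too. Of 30 listed genes 29 were tested, 12 rose and 5 fell, with a median of 0.04, beside 27.7% and 28.4% of all tested genes. Without shControl replicate 1, or without shIFITM3 replicate 1, 3 fell. The number that rose ran from 8 to 12 when 1 sample was left out. The 4 with the smallest p were IMPA2 (-0.42), an inositol monophosphatase gene, the myotubularin genes MTM1 (0.43) and MTMR1 (0.26), and SBF1 (0.26), a myotubularin relative without catalytic activity. INPP4B, PHLPP1 and INPP5K had larger absolute log2 fold changes than each of these 4. MTMR8, picked out after its values were seen, had the lowest log2 fold change of the tested genes of the list (-1.15). It was at 0.304 ± 0.0311 CPM in shIFITM3 and 0.726 ± 0.355 CPM in shControl. Its counts were few, at 6, 7 and 8 in the shIFITM3 replicates and 24, 44 and 13 in the shControl replicates. MTMR8 passed the filter only through its shControl levels, so its call, counted among the 5 falls, depends partly on that filter.

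**Figure D4:**
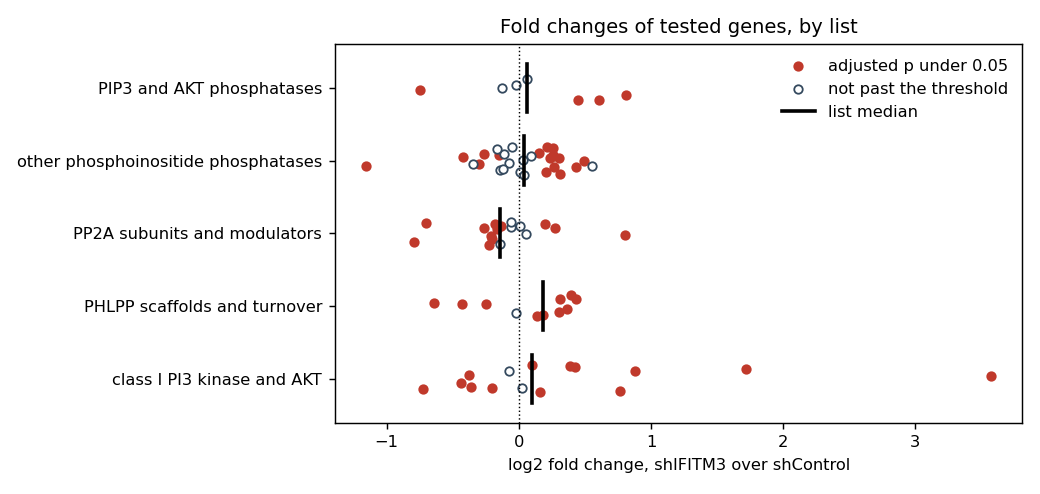
Log2 fold change, shIFITM3 over shControl (x axis), of every tested gene of the 8 phosphatases and of 4 related lists (rows); red dots passed an adjusted p of 0.05, open dots did not, and black bars are list medians. The medians run from -0.15 (PP2A) to 0.18 (PHLPP scaffolds and turnover).

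The genes whose pattern over the 6 samples came closest to a changed phosphatase gene were found by the Euclidean distance of log2(CPM + 0.5) from the shControl mean, among 10904 genes. For INPP4B they were IRS2 (distance 0.0886), PDGFB (0.0912) and SNX8 (0.109), with log2 fold changes of 0.82, 0.80 and 0.79. For PHLPP1 they were LOXL2 (0.0733), ANKMY2 (0.0864) and HOMER2 (0.0966), with log2 fold changes of -0.74, -0.80 and -0.75. For INPP4A they were ASAP1 (0.0280), HGS (0.0503) and CTTNBP2NL (0.0620), and for INPP5K they were NT5C2 (0.0707), MYD88 (0.0850) and ARHGAP12 (0.0892). With only 2 groups this likeness rests mostly on the size of the group difference.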

How the data were processed

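Per the labels, total RNA of 6 PC-9 samples (3 biological replicates per condition) was column-purified and made into stranded mRNA libraries. Per the submitters' processing notes, the build was hg38 and the tools were HISAT2 2.2.1, featureCounts of Subread 2.0.6, fastp 0.23.4, FastQC 0.12.1 and SAMtools 1.20. The gene annotation and strand setting were not given in the sources used here. Raw counts for 26485 gene symbols, without normalization, are what the authors deposited.

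The analysis used edgeR 4.0.16 (R 4.3.3). filterByExpr kept 14018 genes, and libraries were scaled by TMM. The quasi-likelihood model (glmQLFit, glmQLFTest, two-sided) had group as its one term, and p-values were adjusted after Benjamini and Hochberg over all tested genes, with a threshold of 0.05. CPM are counts per 1000000 of the scaled total. The standard error (SE) follows from the fold change and the F statistic, and intervals are 95%. In simulated data with the depths of these samples and known changes, 86.9% of changes of 1 and 81.8% of changes of 0.5 on the log2 scale were called. Only 99 genes of each size were changed there among 13874, while 56.1% of genes passed in the real data. The adjustment of p is stricter in such a setting, so these rates do not measure the power of the comparison made here.

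Pairs of related genes were compared by the log2 ratio of their counts (plus 0.5) within a sample, with an exact two-sided permutation test over samples. RefSeq promoter windows and GENCODE 29 exons (both GRCh38, as hg38) were matched by symbol, and all 8 genes matched. Alternatives were other scalings (total counts, upper quartile, RLE), no filter, a strict filter (50 counts or more in 3 samples or more), limma 3.58.1 with voom, DESeq2 1.42.0, a replicate block, a thinned shControl replicate 2 and leaving out each sample.

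Named are the 8 genes, IFITM3, tested class I PI3 kinase and AKT genes, up to 4 genes of each other list with the smallest p, and the 3 genes closest in pattern to each changed phosphatase gene; 2 genes that this rule picks are not reported here, but count in their lists. Other genes of the lists of PHLPP scaffolds and turnover and of INPP5E partners were named after their values were seen. Members and lists were chosen with earlier results of these data known. Replicates of a group differed by more than counting noise (chi-square per degree of freedom 2.79 to 5.06), so none was counted as a duplicate.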

Additional observations from a re-analysis of the deposited data

How the results depend on the processing

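INPP4A, INPP4B, INPP5K and PHLPP1 kept their direction and stayed past the threshold in all 15 alternatives, with log2 fold changes of 0.43 to 0.48, 0.75 to 0.85, 0.56 to 0.64 and -0.79 to -0.70. INPPL1 and PHLPP2 kept their direction and did not pass in any (lowest adjusted p 0.13 and 0.0559). INPP5E did not pass in any, and its value ran from -0.0858 to 0.0305 when 1 sample was left out; PIK3CB ran from -0.00583 to 0.053 likewise. Same-numbered replicates hardly deviated together (r = 0.026, 0.047 and 0.0041), so no pairing by number was seen. With 3 samples per group this check cannot show that there was none. With the replicate block 3865 genes rose and 4005 fell, with 3 and 1 of the phosphatase genes. The log2 fold changes of INPP4B and PHLPP1 were then 0.81 and -0.75. Falls among other phosphoinositide phosphatases numbered 3 with the strict filter, DESeq2 and the replicate block (3 to 4 with 1 sample left out). Falls among SHIP adaptors numbered 1 with upper-quartile scaling, no filter and the replicate block (0 to 1 with 1 sample left out). Rises among INPP5E partners numbered 1 to 2 with 1 sample left out. Falls among blood cell genes numbered 0 with the strict filter, DESeq2, the replicate block and the thinned library (0 to 2 with 1 sample left out). The cause was not tested. INPP5D was too shallow to be tested; whether depth limits the other genes that did not pass was not tested.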

Other observations

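Genes of the partners of INPP5E in the cilium, an organelle that dividing cells take apart, changed in both directions. Of 12 listed genes 11 were tested, 2 rose and 5 fell (median log2 fold change -0.14). ARL3, PDE6D, CEP164 and KIF3A did not pass. Over all tested genes 27.7% rose and 28.4% fell, and the list was not tested against these shares. Leaving out shControl replicate 1 or 3, or any 1 shIFITM3 sample, left 1 that rose. AURKA and NEK2, which encode kinases of mitosis and of cilium disassembly, fell to 97.3 ± 3.79 and 54.3 ± 2.71 CPM in shIFITM3, against 138 ± 1.71 and 79.5 ± 3.30 CPM in shControl (log2 fold changes -0.50 and -0.55). IFT88, which encodes a part of the transport machinery of the cilium, fell by 0.39 on the log2 scale (edgeR adjusted p = 0.00133). TULP3, whose product carries membrane proteins into the cilium, rose to 82.6 ± 4.53 CPM in shIFITM3, against 56.4 ± 1.18 CPM in shControl (0.55, edgeR adjusted p = 1.16e-09).

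Genes of adaptor proteins that bind SHIP enzymes or act beside them rose in 6 of 9 tested cases, and the other 3 did not pass (median 0.21). Among all tested genes 27.7% rose and 28.4% fell, and this list was not tested against those shares. Without shControl replicate 3, or without shIFITM3 replicate 1, 1 fell. BCAR1, which encodes the focal adhesion adaptor p130Cas, rose to 130 ± 8.84 CPM in shIFITM3, against 89.1 ± 3.40 CPM in shControl (0.54, edgeR adjusted p = 7.3e-10). SH3KBP1 (0.24) and CBL (0.25) rose as well.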
